A study of Mus musculus with 24 samples.

Results

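The apolipoproteins are the protein coats and cofactors of the particles that carry fat and cholesterol in blood, and Mttp encodes the microsomal triglyceride transfer protein, which loads lipid onto apolipoprotein B as it is made. Liver builds very low density lipoprotein around apolipoprotein B, releases the apolipoproteins of high density lipoprotein (HDL), and adds small exchangeable proteins that switch lipolysis of triglyceride on or off. The members described here are the 10 genes Apoa1, Apoa2, Apoa4, Apoa5, Apob, Apoc1, Apoc2, Apoc3, Apoe and Mttp, taken by symbol from the 54432 genes of the deposited table. All 10 passed the filter on low values that left 19810 genes for testing, and each symbol stood in a single row.

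RNA from whole liver of 24 male C57BL/6 mice was sequenced in 4 groups of 6. The groups were Trib1 Flox/Flox mice (Trib1-KO), Cebpa Flox/Flox mice (Cebpa-KO), mice floxed at both genes (DKO) and wild type mice (WT). All groups, WT included, received the same intraperitoneal adeno-associated virus encoding Cre recombinase, the enzyme that cuts out floxed DNA, at 20 to 21 weeks of age, and livers were taken 4 weeks later from chow-fed animals fasted for 4 h. The labels do not name the promoter that drives Cre, and cells other than hepatocytes are present in whole liver. The mice were treated in 2 cohorts of 3 per group, which the columns of the table do not identify. The study's title places it in the control of LDL metabolism by Trib1, a Tribbles pseudokinase that directs degradation of the transcription factor C/EBPα, through Cebpa.

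Totals were 23385895 to 27190701 normalized counts per library. Cebpa averaged 82.2 ± 17.5 normalized counts in Cebpa-KO, 82.4 ± 18.1 in DKO and 6019 ± 1057 in WT (SD, n = 6 each). Trib1 went against the label of Trib1-KO, averaging 4237 ± 358 in Trib1-KO, 333 ± 158 in Cebpa-KO, 732 ± 259 in DKO and 1224 ± 204 in WT. On the log2 scale, Trib1 in DKO was at -0.83 ± 0.24 against WT and at 1.13 ± 0.24 against Cebpa-KO (SE, limma adjusted p = 0.041 and 0.046). The table has a single value per gene and cannot show whether the floxed stretch was lost, so both groups with floxed Trib1 are named below by their label. Cebpa itself averaged 2668 ± 359 normalized counts in the libraries labelled Trib1-KO. The major urinary protein (Mup) genes took 21.4 to 27.4% of the total in the libraries labelled Trib1-KO, 1.33 to 2.26% in Cebpa-KO, 1.45 to 4.63% in DKO and 2.99 to 8.89% in WT.

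On GRCm38 with the GENCODE M21 annotation, 4 members lie in a cluster of 43.3 kb on chromosome 9. Apoa1 is at chr9:46228580-46230466 on the plus strand, Apoc3 at chr9:46232933-46235636 on the minus strand, Apoa4 at chr9:46240696-46243459 and Apoa5 at chr9:46268633-46271919, both on the plus strand. Within 27.6 kb of chromosome 7, all on the minus strand, lie Apoc2 at chr7:19671579-19677941, Apoc1 at chr7:19689481-19692660 and Apoe at chr7:19696109-19699188. Apob is at chr12:7977648-8016835 (plus strand), Apoa2 at chr1:171225054-171226379 (plus strand) and Mttp at chr3:138089854-138144968 (minus strand). The values are sums over a whole gene and do not separate exons, introns or UTRs.

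Promoter windows from RefSeq (GRCm38.p6, 250 bases before to 50 after a start site) were held for 8 of the 10 members, in 12 windows. The stretches upstream of Apoa1 and Apoa4 are shown because these neighbours moved in opposite directions in the libraries labelled Trib1-KO, and that of Apob because it holds a match to the core of the C/EBP site. They run 5′ to 3′ on the gene's strand, cover chr9:46228380-46228579, chr9:46240594-46240695 and chr12:7977427-7977647, and leave out annotated exons of protein-coding genes. Capitals mark matches to the motifs searched.
Apoa1: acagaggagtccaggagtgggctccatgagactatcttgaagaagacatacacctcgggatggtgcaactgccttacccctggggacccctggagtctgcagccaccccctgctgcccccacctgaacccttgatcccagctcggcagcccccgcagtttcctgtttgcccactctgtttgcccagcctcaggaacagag
Apoa4: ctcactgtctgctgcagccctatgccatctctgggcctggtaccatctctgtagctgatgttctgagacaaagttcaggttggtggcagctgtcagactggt
Apob: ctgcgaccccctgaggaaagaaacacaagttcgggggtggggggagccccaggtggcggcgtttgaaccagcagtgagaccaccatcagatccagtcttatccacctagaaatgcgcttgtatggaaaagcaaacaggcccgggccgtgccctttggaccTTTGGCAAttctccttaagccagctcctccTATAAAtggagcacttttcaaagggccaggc
The motifs, searched on both strands of the whole windows, were the C/EBP core TTGCNNAA, an HNF4 motif TGACCTTTG, the DR1 repeat and TATAAA. The windows of Apoa1 and Apoa4 held none of these letters. In the Apob stretch the first run of capitals is a C/EBP core on the opposite strand and the second is TATAAA, and 10.8% of all 32851 promoter windows held the C/EBP core and 13.6% held TATAAA. An alternative start of Apoa2 also had the C/EBP core, in a part not shown. The HNF4 motif was found in 0.478% of all windows and DR1 in 0.0396%, and in none of the members' windows.

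Comparing the libraries labelled Trib1-KO with WT asks how the livers of mice with floxed Trib1 differed. Apoa4, which encodes an apolipoprotein of intestine and liver carried on HDL and chylomicrons, was higher by 4.55 ± 0.32 on the log2 scale (SE), and Apoc2, the activator of lipoprotein lipase, and Mttp were higher too. Apoa1 and Apoa2, the main structural proteins of HDL, were lower together with Apoa5, Apob, Apoc1 and Apoe by smaller amounts. With limma and Benjamini-Hochberg adjustment over all genes tested, 3 of the 10 members were higher and 6 lower at an adjusted p under 0.05. Over all genes tested 22.7% were called, 11.8% higher and 10.9% lower. The median change of the 10 members was -0.24 on the log2 scale, against 0.01 for all genes tested. Every library labelled Trib1-KO stood above every WT library for 3 members and below for 4, which held for 6.26% and 5.71% of all genes tested.

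Apoa4 ranged from 23798 to 41274 normalized counts with a median of 29485 in the libraries labelled Trib1-KO, and from 914 to 1680 with a median of 1320 in WT. The lowest library labelled Trib1-KO stood above every WT library. The adjusted p from limma was 1.1e-10 and the fold 23.4, and under 10 other settings and 24 left-out libraries the change was called each time, at 4.45 to 4.80 on the log2 scale. Apoa4 is overlapped on the opposite strand by the antisense gene Gm10680, which was at 1.14 to 12.5 normalized counts in the libraries labelled Trib1-KO and at 0 in all WT libraries.

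Apoa1 ranged from 55058 to 72065 normalized counts with a median of 66754 in the libraries labelled Trib1-KO, and from 140301 to 184511 with a median of 169686 in WT. The groups did not overlap. The log2 change was -1.32 ± 0.09 (limma adjusted p = 7.8e-11), a fold of 0.400. Apoa2 ranged from 53575 to 63492 with a median of 58925 in the libraries labelled Trib1-KO, and from 87658 to 125039 with a median of 108080 in WT, again without overlap. Its log2 change was -0.86 ± 0.10 (limma adjusted p = 9.3e-07).

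Among the proteins that set the rate of triglyceride clearance, Apoc2 ranged from 2199 to 2930 normalized counts with a median of 2484 in the libraries labelled Trib1-KO, and from 1218 to 1731 with a median of 1388 in WT. The groups were apart, with a log2 change of 0.83 ± 0.16 (limma adjusted p = 0.00032). Apoc2 overlaps the gene Gm44805, annotated as protein-coding, on the same strand. Gm44805 stood at 1887 ± 277 normalized counts in the libraries labelled Trib1-KO, against 1649 ± 375 in WT, and was not called (limma adjusted p = 0.31). How reads were divided between them is not given in the sources used here, so the level of Apoc2 is uncertain. Apoc3, an inhibitor of lipoprotein lipase, ranged from 21022 to 23584 with a median of 22989 in the libraries labelled Trib1-KO and from 18230 to 26153 with a median of 20510 in WT. These groups overlapped and the change was 0.09 ± 0.09 (limma adjusted p = 0.52). Apoa5, which promotes lipolysis of triglyceride, ranged from 18714 to 22383 with a median of 20616 in the libraries labelled Trib1-KO and from 21953 to 32586 with a median of 25314 in WT, overlapping in range, with a change of -0.33 ± 0.09 (limma adjusted p = 0.012).

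Of the other exchangeable members, Apoc1, an inhibitor of receptor uptake of remnants, ranged from 43600 to 56192 normalized counts with a median of 50820 in the libraries labelled Trib1-KO and from 59782 to 73400 with a median of 70396 in WT. The groups were apart, with a change of -0.42 ± 0.07 (limma adjusted p = 0.00011). Apoe, the ligand for remnant uptake, ranged from 198093 to 228700 with a median of 217355 in the libraries labelled Trib1-KO and from 221703 to 284836 with a median of 264568 in WT, overlapping in range, with a change of -0.27 ± 0.08 (limma adjusted p = 0.013).

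In the assembly pair, Mttp ranged from 9140 to 12707 normalized counts with a median of 9974 in the libraries labelled Trib1-KO and from 6972 to 8675 with a median of 8129 in WT, without overlap. The change was 0.36 ± 0.08 (limma adjusted p = 0.0015). Apob ranged from 134749 to 146033 with a median of 139872 in the libraries labelled Trib1-KO and from 155034 to 171622 with a median of 158822 in WT. These groups were also apart, with a change of -0.21 ± 0.07 (limma adjusted p = 0.034). That call was lost without WT B1 or B2 or the libraries C1, C3 or D3 labelled Trib1-KO, one at a time, at adjusted p of 0.058 to 0.070.

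**Figure D1:**
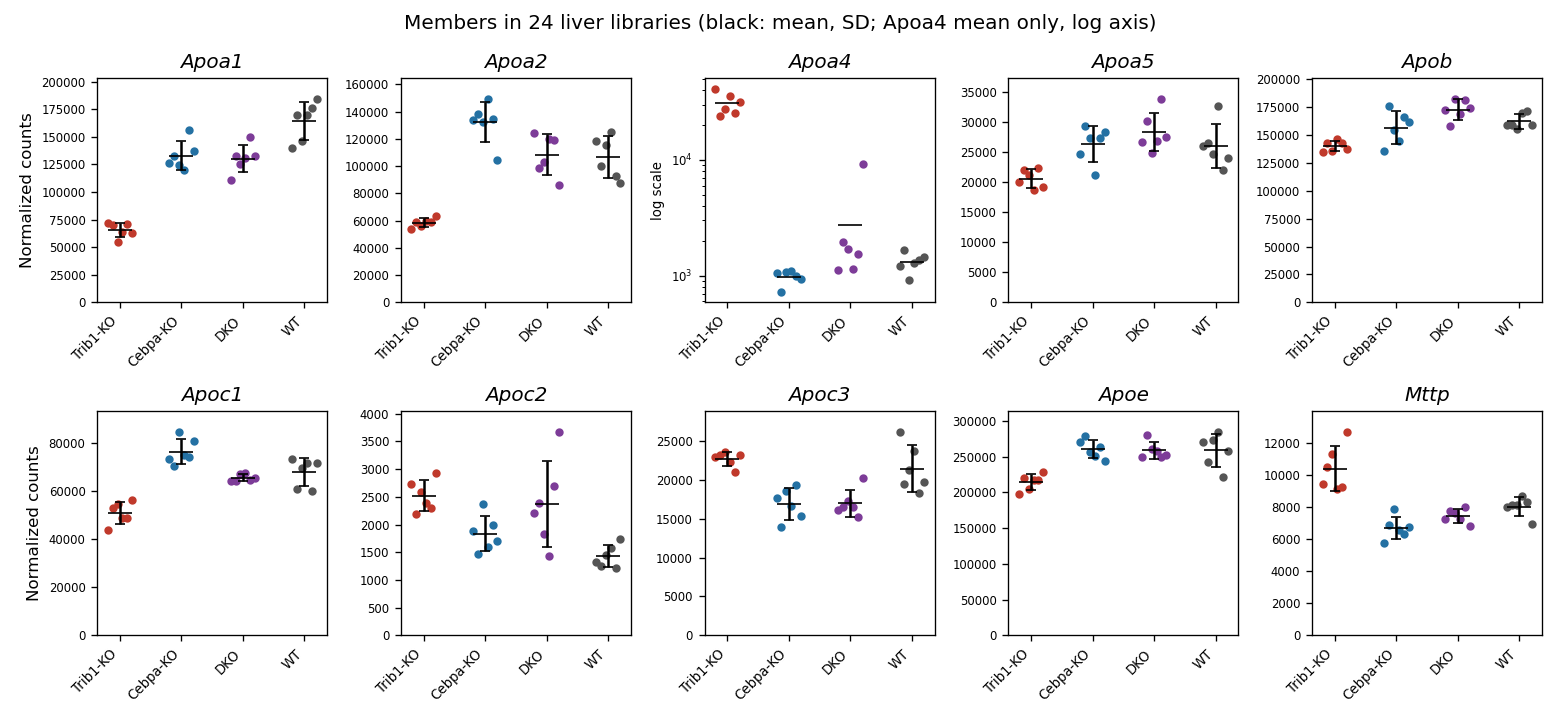
Normalized counts of the 10 members in each library (coloured points), by group as labelled; black marks are the group mean with SD of 6 libraries, and Apoa4 is on a log axis with the mean alone. Apoa4 lies at 23798 to 41274 in Trib1-KO and at 720 to 1938 in every other library except 1 of DKO at 9152.

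Some of these calls depended on the scale of the values. When values were rescaled to library totals without the Mup genes, the median of all genes moved by 0.24 on the log2 scale in this comparison. Apoa1 was then -1.07, Apoa2 -0.61, Apoa4 4.80, Apoc2 1.08 and Mttp 0.62, all called. Apoa5 was -0.07, Apoc1 -0.16, Apoe -0.01 and Apob 0.04 and none was called, Apob with its direction turned, while Apoc3 was 0.34 and called (limma adjusted p = 0.0044). Such rescaling multiplies all genes of a library by the same factor. Relative to the median gene these 5 members were therefore bound to be close under both scales. Apoa5 was -0.32 with these totals and -0.33 on the deposited scale, Apob -0.20 and -0.22, Apoc1 -0.41 and -0.42, Apoe -0.26 and -0.27, and Apoc3 0.10 and 0.08. Summed, the members made up 2.22 to 2.50% of the total in the libraries labelled Trib1-KO, against 3.14 to 3.57% in WT. With Mup genes left out of the total the shares were 3.05 to 3.25% in those labelled Trib1-KO and 3.40 to 3.80% in WT.

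**Figure D2:**
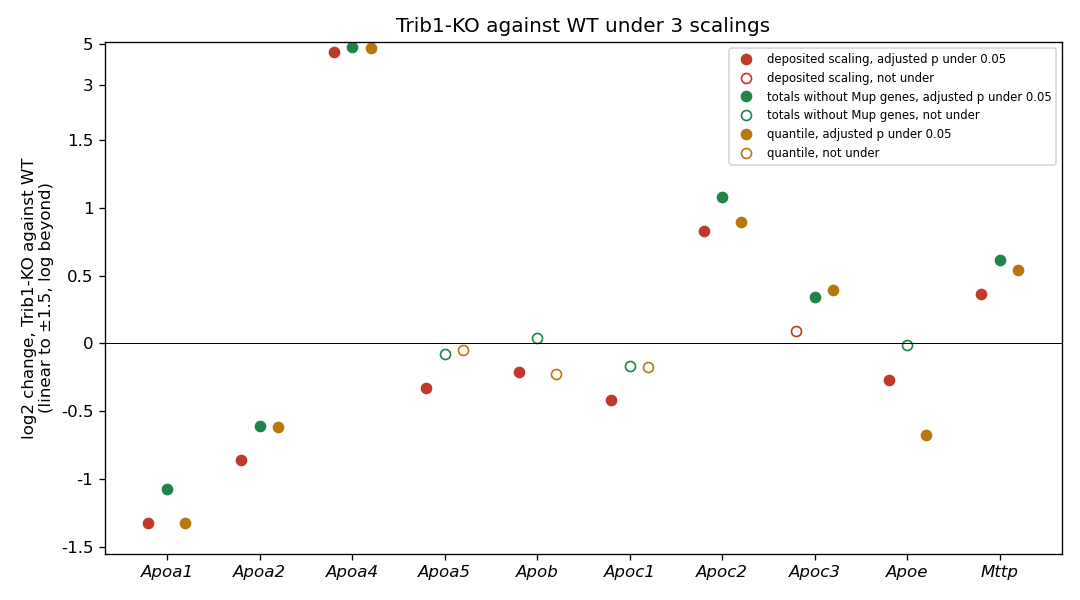
Log2 change of each member in the libraries labelled Trib1-KO against WT (vertical axis, linear to ±1.5 and logarithmic beyond) with the deposited scaling, with totals without Mup genes and with quantile normalization; filled points have a limma adjusted p under 0.05. Apoa1, Apoa2, Apoa4, Apoc2 and Mttp are filled under all 3, while Apoa5, Apob, Apoc1, Apoc3 and Apoe are filled under some.

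Cell markers moved in the same comparison, in which 11.8% of all genes tested were called higher and 10.9% lower. Of 8 measured hepatocyte markers 6 were lower and the other 2 not called, with a summed level of 782346 to 899582 normalized counts in the libraries labelled Trib1-KO, against 1856760 to 2668140 in WT. Alb alone made up most of the WT sum, at 1451670 ± 277014 in WT and 356731 ± 57778 in the libraries labelled Trib1-KO. Of 12 Kupffer cell and macrophage markers 10 were higher and the other 2 not called, at 16679 to 20199 in the libraries labelled Trib1-KO, against 8703 to 15867 in WT. Of 7 cholangiocyte markers 3 were lower, 2 of 6 hepatic stellate and 2 of 8 lymphocyte markers were higher, and of 6 sinusoidal endothelial markers 2 were higher and 1 lower. Their part in the members' changes was not tested. Of 10 enterocyte markers 3 were tested, and 2 of them, Anpep and Fabp2, which liver also expresses, were lower. Cdx1 and Sis were at 0 in all 24 libraries, and 7 of the 10 averaged under 1 normalized count. In whole liver, fewer cells of a type and less RNA per cell cannot be told apart.

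Ratios between members do not depend on the scaling of a library and were taken as descriptions, without a test. The log2 ratio of Apoa4 to Apoa1 was -1.56 to -0.80 in the libraries labelled Trib1-KO, against -7.32 to -6.66 in WT. The ratio of Apoc3 to Apoa1, which lie 2.5 kb apart, was -1.75 to -1.22 in the libraries labelled Trib1-KO, against -3.27 to -2.42 in WT. That of Apoa5 to Apoa1 was -1.85 to -1.38 in those labelled Trib1-KO, against -3.00 to -2.38 in WT. These ranges were apart, so the members of the chromosome 9 cluster moved unequally. In the chromosome 7 cluster, Apoc2 to Apoe was -6.65 to -6.18 in the libraries labelled Trib1-KO, against -7.68 to -7.22 in WT, also apart, while Apoc1 to Apoe overlapped. Mttp to Apob was -4.00 to -3.44 in the libraries labelled Trib1-KO, against -4.51 to -4.25 in WT, which were apart, and Apoa2 to Apoa1 overlapped.

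**Figure D3:**
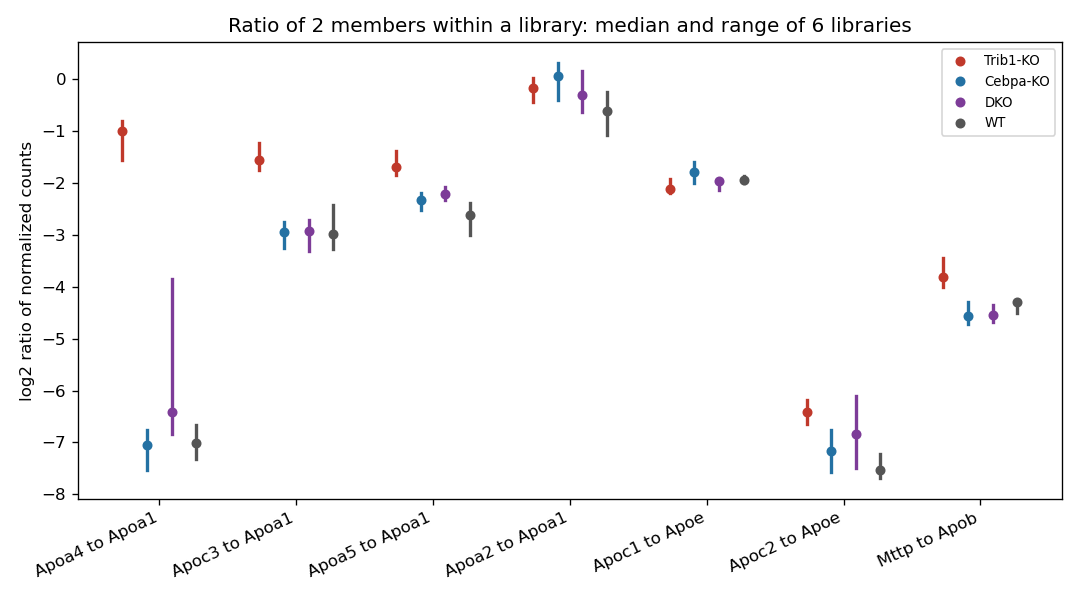
Log2 ratio of normalized counts of 2 members within a library, as the median (point) and range (line) of 6 libraries per group as labelled. Apoa4 to Apoa1 is at -1.56 to -0.80 in Trib1-KO and at -7.32 to -6.66 in WT, and the DKO line reaches -3.86.

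Per kilobase of merged exon, which allows genes to be compared within a group, Apoa2 led in WT at 198670 ± 28251 normalized counts per kb, followed by Apoa1 at 132923 ± 14071, Apoe at 120984 ± 10848 and Apoc1 at 91029 ± 7948. Apoa1 and Apoe did not differ beyond their ranges there, nor did Apob at 11631 ± 489 and Apoa5 at 10285 ± 1437. Mttp at 1295 ± 92.1 and Apoa4 at 724 ± 141 came last, and their ranges were apart. In the libraries labelled Trib1-KO, Apoa4 at 16992 ± 3690 per kb ranked 6 of the 10, with a range that overlapped that of Apoc3 at 22366 ± 909, and Apoa1 at 53145 ± 5244 ranked 4. Apoa2 and Apoe led there and overlapped. The merged exon length stands in for the transcripts in use, which the table does not give.

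Comparing Cebpa-KO with WT, small changes were found and no member was called higher. Apoa1, Apoc3 and Mttp were lower, by 0.30 ± 0.09, 0.34 ± 0.09 and 0.27 ± 0.08 on the log2 scale (limma adjusted p = 0.036, 0.014 and 0.036). This is 3 of 10 members lower, against 5.22% of all genes tested lower, 4.60% higher and 9.82% in all. At an unadjusted p under 0.05, 3 members were higher, Apoa2, Apoc1 and Apoc2, and 3 lower, against 11.1% and 10.9% of all genes tested. Apoa1 ranged from 120165 to 156530 normalized counts with a median of 129681 in Cebpa-KO, Apoc3 from 13944 to 19275 with a median of 17114, and Mttp from 5770 to 7885 with a median of 6690, and all 3 overlapped the WT ranges given above. The calls of Apoa1 and Mttp were lost when single libraries were left out, in 8 of 24 cases for Apoa1 (WT A2, B1, B2 or B3 or Cebpa-KO E1, E2, E3 or F1, adjusted p of 0.062 to 0.085) and in 10 for Mttp (WT A1, A2, A3, B1 or B2 or Cebpa-KO E1, E2, F1, F2 or F3, adjusted p of 0.050 to 0.095). Apoa2 was 0.31 ± 0.10 (limma adjusted p = 0.059) and was called without WT A1 or B1, Cebpa-KO F3 or the library H3 labelled DKO.

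Apoa4 in Cebpa-KO ranged from 720 to 1106 normalized counts with a median of 1025, overlapping WT, with a change of -0.41 ± 0.32 (limma adjusted p = 0.52). The remaining members ranged in change from -0.06 for Apob to 0.36 for Apoc2, and were not called.

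The libraries labelled DKO were compared with WT, from which they differ by both floxed genes. Apoc2 was higher by 0.68 ± 0.16 on the log2 scale and Apoa1 and Apoc3 were lower by 0.33 ± 0.09 each (limma adjusted p = 0.0087, 0.030 and 0.024). This is 1 member higher and 2 lower of 10, against 2.84% and 3.25% of all genes tested, and 6.09% in all. Apoc2 ranged from 1427 to 3673 normalized counts with a median of 2303 in the libraries labelled DKO, Apoa1 from 111302 to 149702 with a median of 131643, and Apoc3 from 15157 to 20226 with a median of 16518, and each overlapped its WT range. The call of Apoa1 was lost without WT A2, B1, B2 or B3 or DKO G1 or G3, and that of Apoc3 without WT A1 or B1 or DKO G1 or H2, at adjusted p of 0.055 to 0.088.

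Apoa4 showed 1 library apart in that group. It was at 9152 normalized counts in DKO H3 and at 1128, 1938, 1701, 1139 and 1528 in G1, G2, G3, H1 and H2. Against WT it was 0.61 ± 0.32 higher on the log2 scale (limma adjusted p = 0.34), and 0.17 without H3 (adjusted p = 0.68). H3 was also the highest of the 6 for Apoc2, at 3673, and for Apoc3, at 20226, and without it Apoc2 was 0.54 against WT and still called (adjusted p = 0.020).

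Comparing the libraries labelled DKO with Cebpa-KO, which both carry floxed Cebpa, 0 of 10 members were called with limma, against 0.0808% of all genes higher, 0.121% lower and 0.202% in all. At an unadjusted p under 0.05, 1 member was higher, Apoa4, and 2 lower, Apoa2 and Apoc1, against 4.98% and 4.50% of all genes tested. Apoa4 was 1.02 ± 0.32 higher (unadjusted p = 0.0044, limma adjusted p = 0.26), and every library labelled DKO stood above every Cebpa-KO library, at 1128 to 9152 against 720 to 1106. Without H3 the change was 0.58 (adjusted p = 0.27). Apoc1 ranged from 64094 to 67410 with a median of 64919 in the libraries labelled DKO and from 70400 to 84509 with a median of 74538 in Cebpa-KO, also apart, with a change of -0.22 ± 0.07 (limma adjusted p = 0.29). Of all genes tested, 0.273% stood above and 0.439% below Cebpa-KO in every library. The 95% interval for Apoa1 was -0.22 to 0.16 on the log2 scale, and that for Mttp was -0.01 to 0.32.

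Set against the libraries labelled Trib1-KO, those labelled DKO were higher for Apoa1, Apoa2, Apoa5, Apob, Apoc1 and Apoe and lower for Apoa4, Apoc3 and Mttp. These are 6 and 3 of 10, against 14.6% and 15.7% of all genes tested, and 30.3% in all. The same 9 members had ranges that were apart, 6 above and 3 below, as had 8.14% and 8.74% of all genes tested. Apoa4 was at 1128 to 9152 normalized counts in the libraries labelled DKO and 23798 to 41274 in those labelled Trib1-KO, a log2 change of -3.94 ± 0.32 (limma adjusted p = 6.7e-10), which was -4.38 without H3. Apoa1 was 0.99 ± 0.09 higher (adjusted p = 5.5e-09), Apoa2 0.88 ± 0.10 higher (adjusted p = 2.9e-07), and Mttp 0.47 ± 0.08 and Apoc3 0.42 ± 0.09 lower (limma adjusted p = 5.7e-05 and 0.00057). Without the Mup genes in the totals the median gene moved by -0.27 and Apoa5, Apob, Apoc1 and Apoe were no longer called, Apoe with its direction turned to -0.02, while Apoc2 was called at -0.44 (limma adjusted p = 0.020). Relative to the median gene, Apoa5 was 0.46 with these totals and 0.48 on the deposited scale, Apob 0.30 and 0.33, Apoc1 0.37 and 0.39, and Apoe 0.27 and 0.29. That closeness follows from the rescaling, which moves all genes of a library alike. With quantile normalization Apoa5 stood at 0.12 relative to the median gene, Apob at 0.49, Apoc1 at 0.22 and Apoe at 0.81. Apoa5 was then not called (limma adjusted p = 0.19).

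**Figure D4:**
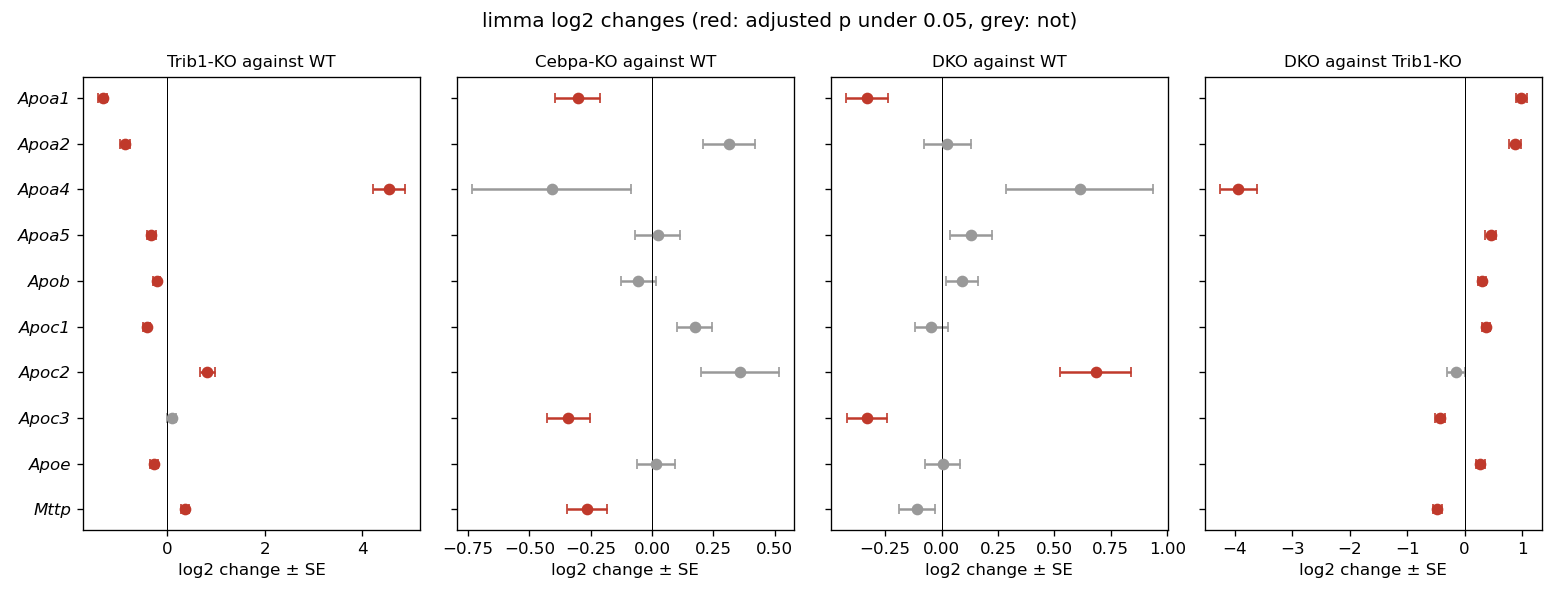
Log2 change with SE of each member in 4 comparisons, each panel with its own horizontal axis; red points have a limma adjusted p under 0.05 and grey points do not. Apoa4 is at 4.55 in Trib1-KO against WT and at -3.94 in DKO against Trib1-KO, while the points of the Cebpa-KO and DKO panels against WT stay within 0.69.

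The interaction, which subtracts the Trib1-KO against WT change from the DKO against Cebpa-KO change (groups by label), tests whether the effect of floxed Trib1 differed with Cebpa floxed. It was positive for Apoa1 at 1.29 ± 0.13, Apoa2 at 0.57 ± 0.15, Apoa5 at 0.43 ± 0.13 and Apob at 0.36 ± 0.10 (limma adjusted p = 1.4e-07, 0.011, 0.030 and 0.019), and negative for Apoa4 at -3.53 ± 0.46 (limma adjusted p = 6.1e-06). These are 4 and 1 of 10 members, against 6.35% and 6.22% of all genes tested, and 12.6% in all. The call of Apoa5 was lost without WT B1, the libraries D1 or D3 labelled Trib1-KO, Cebpa-KO F1 or DKO G2 or H2. Without H3 Apoa4 was -3.97 and Apoc2 was called at -0.64 (adjusted p = 0.030), from -0.50 with all libraries (adjusted p = 0.16). With totals without Mup genes the median gene moved by -0.23, Apoa1 at 1.05 and Apoa4 at -3.77 were still called, and Apoa2 at 0.32, Apoa5 at 0.19 and Apob at 0.11 were not. Relative to the median gene those 3 stood at 0.57, 0.43 and 0.35 with these totals and at 0.58, 0.44 and 0.37 on the deposited scale. They are close because such rescaling moves all genes of a library alike. Apoc2 at -0.75 and Mttp at -0.45 were called with these totals (limma adjusted p = 0.013 and 0.0060). On the deposited scale the interaction was not called for Apoc3 at -0.08 or Mttp at -0.21 (limma adjusted p = 0.75 and 0.28), and with quantile normalization both were, at -0.42 and -0.38 (adjusted p = 0.023 and 0.0095), as was Apoe at 0.56 (limma adjusted p = 0.014).

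Related genes were read from 8 lists, which were chosen with earlier results of these data known. In the libraries labelled Trib1-KO against WT, 6 of 11 measured other apolipoproteins were lower, 0 higher and 5 not called, with a median change of -0.30. Of all genes tested, 10.9% were lower and 11.8% higher. Apoh, which binds phospholipid, was -0.46 ± 0.08 (limma adjusted p = 7.4e-05). Genes of HDL formation and remodelling had 5 lower and 2 higher of 11, among them Lipc, hepatic lipase, at -0.99 ± 0.08, Lcat, which esterifies the cholesterol of HDL, at -0.82 ± 0.08, and Scarb1, the HDL receptor, at -0.85 ± 0.12 (limma adjusted p = 1.1e-09, 9.7e-09 and 8.8e-06). Lipoprotein assembly and secretion had 4 higher and 4 lower of 18, with Mia3, which helps load large cargo at the endoplasmic reticulum, at -0.74 ± 0.08 (limma adjusted p = 1.2e-07).

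Receptors and clearance genes had 3 higher and 5 lower of 12, led by Vldlr, the very low density lipoprotein receptor, at 3.91 ± 0.36 (limma adjusted p = 1.2e-08). Of the lipolysis partners 1 was higher and 1 lower of 7. Among all genes tested, 11.8% were higher and 10.9% lower, which applies to every list in this comparison. Creb3l3, a hepatic factor known to activate some apolipoprotein genes in mouse, was -0.74 ± 0.06 (limma adjusted p = 3.1e-10). Its part in the members' changes was not tested. Regulators of the apolipoprotein genes had 3 higher and 8 lower of 22, with Ppargc1b, a coactivator, at -1.22 ± 0.16 and Rora, a nuclear receptor, at 0.59 ± 0.10 (limma adjusted p = 2.9e-06 and 6.2e-05). Beside the chromosome 9 cluster 2 of 7 neighbours were higher, Pafah1b2 at 0.54 ± 0.10 and Sidt2 at 0.46 ± 0.15 (limma adjusted p = 0.00014 and 0.029), and beside the chromosome 7 cluster Relb was higher at 1.79 ± 0.19 and Apoc4, the fourth apolipoprotein there, and Clptm1 were lower at -0.21 ± 0.06 and -0.35 ± 0.11 (limma adjusted p = 8.4e-08, 0.017 and 0.024).

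In Cebpa-KO against WT, other apolipoproteins had 3 higher and 3 lower of 11, against 4.60% and 5.22% of all genes tested. Among them were Apom, an HDL carrier of sphingolipid, at -0.77 ± 0.13, Apol7a at 0.64 ± 0.12 and Apoc4 at -0.32 ± 0.06 (limma adjusted p = 0.00024, 0.00075 and 0.0013). Among lipolysis partners Lpl, lipoprotein lipase, was 2.07 ± 0.27 higher and Angptl8, an inhibitor of that lipase, was lower by 1.60 ± 0.27 (limma adjusted p = 8.8e-06 and 0.00020). In the libraries labelled DKO against WT the same pair stood at 1.27 ± 0.27 and -1.23 ± 0.27 (limma adjusted p = 0.0042 and 0.0050). Creb3l3 averaged 4775 ± 327 normalized counts in the libraries labelled Trib1-KO, 7782 ± 376 in Cebpa-KO, 8690 ± 365 in those labelled DKO and 7991 ± 510 in WT.

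Over the 24 libraries, on log2 values and among 12777 named genes averaging at least 10, the gene most like Apoa4 was Tgfbr2 (Pearson r = 0.97), the gene most like Apoa1 was Adgrf1 (0.94) and the gene most like Apoa2 was Ndufa4 (0.99). For Mttp it was Ank (0.92), for Apoc3 Dct (0.92) and for Apoe Ier3ip1 (0.91). These are descriptions, since the libraries share their group differences.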

How the data were processed

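The deposited table holds a normalized signal per gene, read from its values as estimated counts scaled by the authors to a size factor of each library, since no header names the unit. The submitters' processing notes name Salmon, DESeq2 and GRCm38.p6, without versions or roles. Column names give a group with a letter and number, so mice and cohorts could not be matched to columns.

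Symbols are those of the table and coordinates come from GENCODE M21. Values were tested as log2(value + 1) with limma 3.58.1 (R 4.3.3, intensity trend) on 19810 genes averaging 1 or more, in a single model of 4 group means over 24 libraries, with Benjamini-Hochberg adjustment over all genes; calls are at adjusted p under 0.05, 2-sided. Fold changes are on the log2(value + 1) scale. The fit was tested on simulated data. The members and lists were chosen with earlier results of these data known. Named were the members, Trib1 and Cebpa, and up to 3 list genes with the smallest adjusted p per comparison; genes most like a member are those with the highest Pearson r. Some list genes are not reported here. Saa1 and Lcn2 were chosen after their values were seen. Alternatives covered pseudocount, filter, scaling, variance model, samples fitted, number block and each library left out. Python 3.11.15 with pandas 2.3.3 was used.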

Additional observations from a re-analysis of the deposited data

Results flagged for a closer look

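Apoa4 in DKO H3 stood at 9152 normalized counts, far from the other 5 libraries labelled DKO at 1128 to 1938. Of 40 combinations of member and group looked at, this was the only one whose end value stood apart by Dixon's test. By chance that test flags about 1 in 20 of the combinations looked at, so 1 flag among 40 is not more than chance gives.

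For 5 members the change with floxed Trib1 differed by whether Cebpa was floxed, by the interaction term of limma: Apoa1 at 1.29, Apoa2 at 0.57, Apoa5 at 0.43 and Apob at 0.36 on the log2 scale, and Apoa4 at -3.53. With totals without Mup genes Apoa1 and Apoa4 still passed, Apoa2, Apoa5 and Apob did not, and Apoc2 at -0.75 and Mttp at -0.45 did.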

How the results depend on the processing

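For member values, 534 results under other settings stayed called or uncalled as before, 38 lost the call, 16 gained one and 2 reversed. A reversal was counted only where a call was held before or after, so uncalled changes that turned direction are among the 534. The interaction of Apoc1, at 0.20 and down to -0.18, is an example. The reversals came with totals without Mup genes. They were Apob at 0.040 in the libraries labelled Trib1-KO against WT and Apoe at -0.021 in DKO against Trib1-KO. With 1 library left out, 1396 stayed as before, 39 lost the call, 5 gained one and 0 reversed by the same rule. Uncalled changes of direction are again among the 1396, such as Apoa5 in Cebpa-KO against WT at 0.02 and down to -0.02. In Trib1-KO against WT, Apoa1, Apoa2, Apoa4, Apoc2 and Mttp were called under every setting and left-out library run.

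Counts of members called moved by over 1.5 times as follows; the causes were not tested. Without the filter, Cebpa-KO and DKO against WT had 1 lower each and the interaction 2 higher. With a mean of at least 10, with robust estimation and with the number as a replicate block, Cebpa-KO had 1 higher. With library totals, Cebpa-KO had 1 higher and 1 lower and DKO 1 lower. Without the Mup genes, Trib1-KO had 2 lower, DKO against Trib1-KO 2 higher, and the interaction 1 higher and 3 lower. With quantile normalization, Trib1-KO had 3 lower, Cebpa-KO 2 higher and 1 lower, DKO against WT 2 higher and 0 lower, and the interaction 3 lower. Fitted on the groups compared alone, Cebpa-KO had 0 lower and DKO against WT 0 higher and 0 lower, against 3 lower, 1 higher and 2 lower with all groups fitted. By less, Trib1-KO against WT had 4 lower without the filter (Apob and Apoe lost), 5 lower with a pseudocount of 10 (Apob lost), and 4 higher without Mup genes and with quantile normalization. Cebpa-KO had 2 lower with a pseudocount of 10 (Apoa1 lost) and without the trend (Mttp lost). DKO against Trib1-KO had 4 lower without Mup genes and 5 higher with quantile normalization, and the interaction had 3 higher with quantile normalization and 5 with robust estimation. With each library left out, Cebpa-KO against WT had 0 to 1 higher and 1 to 3 lower, DKO against WT 0 to 2 lower and the interaction 1 to 2 lower.

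Whether the number in the column names pairs libraries was not settled. Deviations from the group means, averaged over same-numbered libraries of a group, correlated at -0.09 to 0.12 over 18 pairs, with 2 over 0.1. Small correlations of such averages cannot exclude pairing. With the number as a block, more genes were called in each comparison. In DKO against Cebpa-KO, 34 were higher and 27 lower, against 16 and 24 without it. The block could use the number alone, and a cohort term was not run.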

Other observations

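The libraries labelled DKO differed among themselves beyond Apoa4, as did those of Cebpa-KO for Saa1 and Lcn2. Saa1, an acute-phase protein, was at 70244 normalized counts in H3 and 102240 in H2, and Lcn2, which encodes lipocalin 2, was at 5039 and 1915, while Apoa4 was at 9152 in H3 and 1528 in H2. Other libraries labelled DKO had Saa1 at 373 to 16249 and Lcn2 at 12.4 to 55.9. Cebpa-KO F3 had Saa1 at 18119 and Lcn2 at 149, against 271 to 1295 and 12.4 to 34.5 in the rest of its group. Lcn2 was at 889 to 1973 in the libraries labelled Trib1-KO and 34.9 to 276 in WT. Saa1 was at 3448 to 12784 in those labelled Trib1-KO and 557 to 6882 in WT, so WT libraries differed among themselves as well. The genes were chosen after their values were seen.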
